A study of Rattus norvegicus with 24 samples.

Results

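The long genes described here are the annotated features on rat chromosomes 1 to 20 that span 500 kb or more from the first to the last exon base and hold 48 or more counts summed over the 24 libraries of the series. They number 109 of 32552 features listed; 112 features are that long at any count, and 4 listed features were left out by the rule, none of them of that length. RNA was sequenced from the ventral tegmental area (VTA) and, in the forebrain, the nucleus accumbens (NAc) of male and female Sprague Dawley rats after fentanyl or saline. The title concerns opioid withdrawal and choice between fentanyl and food, and the rats were killed in place of the final choice session. For each sex the NAc was taken from 4 fentanyl and 3 saline rats and the VTA from 3 fentanyl and 2 saline rats, and 10 of the 14 rats gave a library from each region. The labels do not state dose, age or which rats were in withdrawal. No feature could be paired with a gene name, so genes are given by the positions in the deposited tables, whose genome build is not stated there, and marker genes of neurons, dopamine cells or glia were not analysed here.

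The NAc is a striatal area built mainly of inhibitory spiny projection neurons, and the VTA is the midbrain area whose dopamine neurons send axons to it. Most of the length of a very long mammalian gene is intron. RNA polymerase needs hours to cross it, so the transcript appears late after a promoter fires, and such genes are known to be sensitive to loss of topoisomerase activity. In brain this class is known to be rich in genes for synaptic adhesion proteins, ion channels, receptors and their anchoring proteins. Whether that holds for the 109 could not be looked up without names.

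The 109 long genes spanned a median of 650 kb, from 500080 to 6361342 nt, and 12 of them spanned 1 Mb or more. The features just inside the threshold spanned 500080 nt (chromosome 9) and 500952 nt (chromosome 11), and those just outside 498006 nt (chromosome 11) and 499515 nt (chromosome 1). Their exons summed to a median of 4.20 kb in 23 separate blocks, against 2.20 kb in 8 blocks for the 15910 shorter features with 48 or more counts. Among features with 3072 to 12287 summed counts, where long genes were most numerous, the medians were 3.88 kb and 3.01 kb. Exons made up a median of 0.608% of the span in long genes and 12.9% in shorter features, and the longest stretch without an exon had a median of 164 kb. In 10 long genes a single stretch took over 50% of the span, and in 5 of these over 80%. The longest of all, on chromosome 15 (87506959 to 93868301, minus strand), had 96.5% of its 6.36 Mb in 1 stretch without an exon, so its span rests on how the annotation joins its exons.

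Long genes had few neighbouring features, counted as those with a midpoint within 1 Mb of the gene's own midpoint. A long gene itself fills part of that window, so a low number is in part set by its span. The median was 10 neighbours for long genes and 33 for shorter features. Of the long genes, 95 of 109 (87.2%) fell in the fifth of features with the fewest neighbours, against 21.01% of shorter features. They were found on all 20 chromosomes, by number most often on chromosomes 2 (15), 4 (13) and 1 (12), with 1 each on chromosomes 10, 14 and 16. As a share of the features with 48 or more counts on a chromosome they were most frequent on chromosome 13 (1.54%) and least frequent on chromosome 10 (0.077%), with 0.571% on chromosome 1. On the plus strand lay 67 and on the minus strand 42. Another feature overlapped the span of 53 on the same strand and of 52 on the opposite strand, but exons overlapped in 7 only, 6 on the same strand and 1 on the opposite strand. For these 7 the counts of the overlapping features cannot be fully told apart.

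Long genes were well expressed in both regions. Their median level per library was 11.4 to 14.8 CPM (each count as a rate of its library's scaled total) per kb of exon in the NAc and 9.81 to 12.3 in the VTA. Over the shorter features it was 5.79 to 6.39 and 5.68 to 6.04. Shorter features weighted to the same distribution of total counts, called shorter features at like counts from here on, stood at 15.7 to 16.2 and 14.4 to 15.3 CPM per kb of exon. Each library held a count for 107 to 109 of the long genes. The 10 most counted held 48.3% of the counts of all 109.

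The most counted long gene, on chromosome 7 (50084060 to 50638798, minus strand), took 12.3% of these counts. Its level was 1447 ± 131 CPM in the NAc and 1648 ± 625 CPM in the VTA (mean ± SD, 10 rats), which is 323 and 368 CPM per kb of exon. The VTA library of female fentanyl rat 2 held 337 CPM of it, where the other 9 VTA libraries held 1407 to 2699. That library also had the lowest share of counts in long genes. Next by level in the NAc stood a chromosome 6 gene of 761 kb at 1223 ± 242 CPM, a chromosome 4 gene of 604 kb at 962 ± 74.6 CPM and a chromosome 6 gene of 1.93 Mb at 959 ± 106 CPM. These 3 were lower in the VTA, at 112 ± 13.96, 681 ± 45.3 and 629 ± 126 CPM. A chromosome 6 gene of 567 kb went the other way, with 491 ± 33.2 CPM in the NAc and 777 ± 140 CPM in the VTA. The 6.36 Mb feature had 410 ± 25.2 and 403 ± 31.9 CPM, an adjusted p of 0.65 by edgeR.

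**Figure D1:**
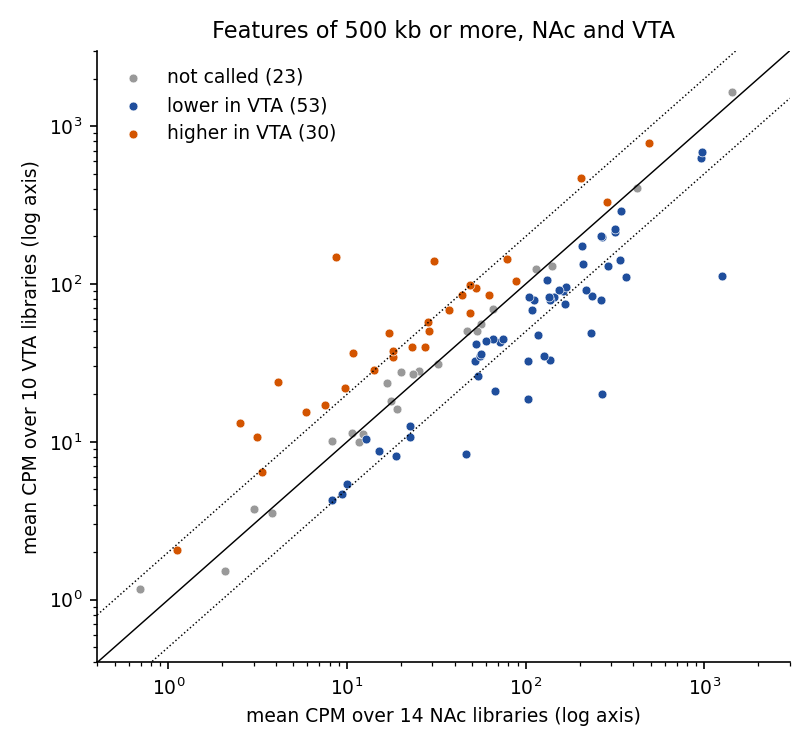
Mean CPM of each of the 106 long genes tested between regions, NAc on the horizontal and VTA on the vertical log axis; the solid line marks equal levels and the dotted lines a 2-fold difference. The 53 genes lower in the VTA lie mostly at the higher levels, and the 30 higher in the VTA are spread over the range.

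Long genes took a smaller share of the RNA in the VTA than in the NAc. Of the counts on chromosomes 1 to 20 they held 1.88% to 2.14% in the 14 NAc libraries and 1.24% to 1.80% in the 10 VTA libraries, with no overlap. Without the most counted gene the shares were 1.67% to 1.94% and 1.19% to 1.42%, again with no overlap. That gene was not lower in the VTA (1447 and 1648 CPM), so leaving it out cannot show whether the gap rests on single genes. The chromosome 6 gene of 761 kb, at 1223 CPM in the NAc and 112 CPM in the VTA, was not left out in this way. With a threshold of 250 kb, which takes in the long genes, the share was 6.9993% to 7.9235% in the NAc libraries. In the VTA libraries it was 5.295% to 6.2297%, again with no overlap. Features of 250 to 500 kb were not taken alone. The smaller share is therefore not shown to be particular to spans of 500 kb or more. In bulk tissue fewer cells of a type and less RNA per cell cannot be told apart. Punches of the NAc were also wider than those of the VTA, per the labels.

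**Figure D2:**
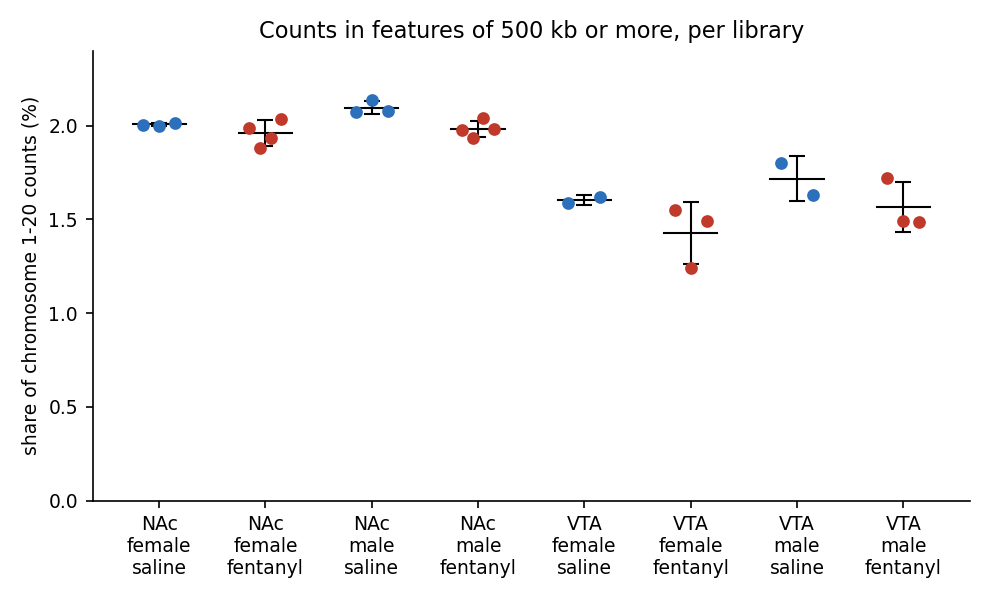
Share of chromosome 1 to 20 counts (%, from 0) held by the 109 long genes in each library, by region, sex and treatment; points are libraries (saline blue, fentanyl red), bars the mean and SD. The NAc libraries lie at 1.88% to 2.14% and the VTA libraries at 1.24% to 1.80%, and in NAc males the 4 fentanyl points lie below the 3 saline points.

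Between the regions of the same rats, more long genes were lower than higher in the VTA. Of 106 tested in the 10 rats with both regions, 53 were lower, 30 were higher and 23 did not pass the test (edgeR quasi-likelihood test with rat as a block, Benjamini-Hochberg adjusted p under 0.05 over all features). Over all 14795 features tested, 62.3% were called, 31.7% higher and 30.6% lower, and the shares were 35.3% higher and 36.5% lower among shorter features at like counts. The share of long genes lower in the VTA, 53 of 106, is above that background, and the 28.3% higher is somewhat below it. The median log2 fold change was -0.24 for long genes and -0.01 for shorter features at like counts, a difference of -0.236.

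The shift was seen rat by rat. Taken within each rat, the median of long genes minus that of shorter features at like counts ran from -0.397 to -0.0386, with a mean of -0.203 ± 0.110 (SD, n = 10), and was negative in all 10 rats. The value nearest 0 came from saline female 2 and the lowest from fentanyl female 1. In every rat 40 long genes (37.7%) were lower and 20 (18.9%) were higher in the VTA, against 18.9% lower and 18.1% higher over all features.

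Large differences were frequent among long genes. Of the 106, 38 (35.8%) differed by more than 2-fold, 22 of them called lower and 16 called higher, against 22.3% of all features and 19.4% of shorter features at like counts. The median size of the log2 difference, whatever its sign, was 0.75 in long genes and 0.45 in shorter features at like counts. Lower calls were most frequent among well counted genes. Among the 28 long genes with 12288 to 49151 counts in all, 22 were lower and 3 higher in the VTA, where shorter features of the same counts were 45.6% lower and 35.3% higher. Among the 27 with 768 to 3071 counts, 8 were lower and 9 higher, close to the shorter features (28.1% and 33.5%).

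Span was followed in bins over all features, which were not matched on counts. Among shorter features the median log2 fold change also varied with summed counts. It was 0.09 at 192 to 767 counts, -0.08 at 12288 to 49151 and 0.11 at 49152 to 196607. By span the median log2 fold change was 0.06 under 10 kb, 0.05 from 10 to 50 kb, -0.06 from 50 to 100 kb, -0.04 from 100 to 200 kb and -0.10 from 200 to 500 kb. It was -0.23 over the 94 long genes of 500 kb to 1 Mb and -0.71 over the 12 of 1 Mb or more, of which 7 were lower, 3 higher and 2 not called. The last bin holds few genes, and some have most of their span in 1 stretch without an exon. The trend to lower values from the shortest bin to 500 kb to 1 Mb does not rest on that last bin. Span and counts were not separated in it. Long genes had few neighbours by the midpoint measure given above, which depends in part on their own span. In the fifth of features with the fewest neighbours, 47 of 94 long genes and 37.6% of 2926 shorter features were lower in the VTA, with medians of -0.24 and -0.06.

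**Figure D3:**
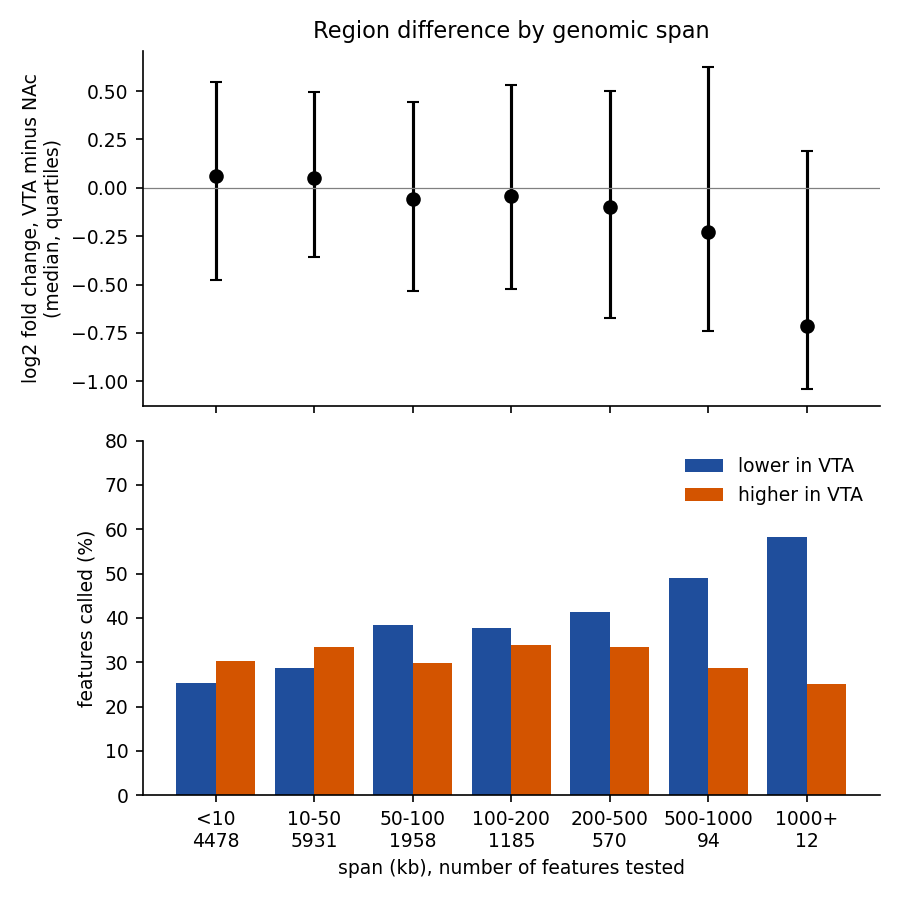
Log2 fold change of VTA minus NAc by genomic span of the feature, in bins not matched on counts. The upper panel gives the median and quartiles of each span bin, the lower panel the percent of features called lower or higher. The medians run from 0.06 under 10 kb to -0.23 at 500 kb to 1 Mb and -0.71 in the 12 features of 1 Mb or more, and the share called lower from 25.3% to 58.3%.

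The gene with the largest rise towards the VTA was ENSRNOG00000007636 (chromosome 4, 50326442 to 50860756, minus strand). Its level was 3.93 to 20.1 CPM in the NAc (median 7.39) and 13.99 to 299 CPM in the VTA (median 148). The ranges overlap because of 1 rat: female fentanyl 2 gave both the highest NAc value, 20.1, and the lowest VTA value, 13.99. On the log2 scale the difference was 3.87 ± 0.57 (SE; adjusted p = 0.00107 by edgeR). ENSRNOG00000011134 (chromosome 1, 18491384 to 19143269, plus strand) had 1.96 to 7.52 CPM in the NAc (median 3.89) and 19.5 to 31.9 CPM in the VTA (median 22.6), with no overlap. Its log2 difference was 2.53 ± 0.14 (adjusted p = 8.51e-11 by edgeR).

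In the other direction, ENSRNOG00000013282 (chromosome 2, 3400977 to 4088989, plus strand) had 194 to 362 CPM in the NAc (median 265) and 14.8 to 28.4 CPM in the VTA (median 19.1). Its log2 difference was -3.73 ± 0.08 (adjusted p = 7.57e-16 by edgeR). ENSRNOG00000030771 (chromosome 6, 57516713 to 58277279, plus strand) had 768 to 1719 CPM in the NAc (median 1260) and 92.7 to 138 CPM in the VTA (median 108), so by median it was the long gene of rank 2 of 109 in the NAc and of rank 23 in the VTA. Its log2 difference was -3.47 ± 0.08 (adjusted p = 9.91e-16 by edgeR). Neither pair of ranges overlaps.

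The other large differences spread over many chromosomes. Higher in the VTA by more than 4-fold stood a chromosome 10 gene of 506 kb (log2 fold change 2.26 ± 0.23) and a chromosome 4 gene of 594 kb, with 17.3 to 45.3 CPM in the NAc and 125 to 190 CPM in the VTA (2.21 ± 0.10). They were followed by genes on chromosomes 6 (570 kb, 1.79 ± 0.15), 20 (762 kb, 1.76 ± 0.20), 1 (870 kb, 1.49 ± 0.10) and 12 (650 kb, 1.43 ± 0.16). Lower in the VTA stood a chromosome 5 gene of 529 kb (-2.51 ± 0.15), a chromosome 1 gene of 653 kb (-2.46 ± 0.11), a chromosome 11 gene of 541 kb (-2.21 ± 0.08) and a chromosome 16 gene of 924 kb (-2.03 ± 0.17). A chromosome 1 gene of 717 kb was among the best measured, with 298 to 463 CPM in the NAc and 82.8 to 124 CPM in the VTA (-1.70 ± 0.06). All of these passed at an adjusted p under 0.05 by edgeR.

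Among the 12 genes of 1 Mb or more, those lower in the VTA lay on chromosomes 7 (1398 kb, log2 fold change -1.25 ± 0.07), 3 (1398 kb, -1.16 ± 0.07), 13 (1019 kb, -1.04 ± 0.08), 11 (1029 kb, -1.04 ± 0.22), 4 (1698 kb, -0.80 ± 0.11), 15 (1006 kb, -0.79 ± 0.13) and 6 (1934 kb, -0.64 ± 0.08). Those higher lay on chromosomes 1 (1678 kb, 0.88 ± 0.09), 19 (1123 kb, 0.82 ± 0.12) and 6 (1305 kb, 0.23 ± 0.07). A chromosome 9 gene of 1012 kb (0.18 ± 0.23) and the 6.36 Mb feature (-0.03 ± 0.06) did not pass. In the genes of 1029 kb and 1678 kb, 1 stretch without an exon took 89.4% and 81.2% of the span. These spans, like that of the 6.36 Mb feature, rest on how the annotation joins the exons.

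With fentanyl, 7 long genes changed in the NAc of females, a smaller share than over all features after the low-count filter. Without the filter the share of long genes was the larger one, against a background not at like counts. Of 104 tested, 4 rose and 3 fell (6.73%; edgeR, adjusted p under 0.05, 4 fentanyl against 3 saline rats), where 13.5% of all 13248 features were called, 8.05% up and 5.45% down. Among shorter features at like counts 17.96% were called, 10.8% up and 7.11% down. The median log2 fold change was -0.02 for long genes and 0.01 for shorter features at like counts. Leaving out saline replicate 1 or 2 reduced the 7 calls to 1, leaving out saline replicate 4 reduced them to 2, and a fit of only the 2 female groups gave 2 (1.94% against 8.5% of all features). In the other direction, leaving out fentanyl replicate 8 gave 10 calls, and with no low-count filter 14 of 109 long genes were called (12.8%) against 8.33% of 24888 features. Mitochondrial features took 29.2% to 36.7% of all counts in the fentanyl libraries and 22.1% to 26.1% in the saline libraries of these females, and their part in these calls was not tested.

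The long gene that held in every alternative lies on chromosome 9 (1145700 to 1746397, plus strand). It had 222, 254, 211 and 206 CPM in fentanyl females and 160, 169 and 171 CPM in saline females. All fentanyl values lie above all saline values. Its log2 change was 0.45 ± 0.10 (adjusted p = 0.0068 by edgeR), with adjusted p values of 0.00119 to 0.047 over 13 alternatives. Its level in saline females was also below that in saline males (-0.24 ± 0.11, adjusted p = 0.415 by edgeR).

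ENSRNOG00000014862 (chromosome 1, 112158519 to 112811936, minus strand) had 165, 93.4, 103 and 99.4 CPM in fentanyl and 76.0, 89.0 and 76.2 CPM in saline females. The groups do not overlap, and fentanyl replicate 1 stands far above the other 3. The log2 fold change was 0.54 ± 0.16 (adjusted p = 0.0359 by edgeR), and the call ended on leaving out that replicate, on leaving out any saline replicate and in a fit of only the females. ENSRNOG00000029598 (chromosome 11, 11062790 to 11585765, minus strand) had 499, 308, 311 and 305 CPM in fentanyl and 255, 242 and 263 CPM in saline females. Replicate 1 stood apart here too; the log2 fold change was 0.52 ± 0.16 (adjusted p = 0.0386 by edgeR), and the call ended under the same 5 alternatives. The chromosome 6 gene of 1934 kb had 1160, 978, 984 and 994 CPM in fentanyl and 829, 817 and 819 CPM in saline females. Its log2 fold change was 0.35 ± 0.09 (adjusted p = 0.0159 by edgeR), a call that ended with the replicate block, on leaving out any saline replicate and in a fit of only the females.

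The 3 that fell were less even. ENSRNOG00000000373 (chromosome 20, 25064702 to 25826658, minus strand) had 3.54, 1.595, 1.66 and 1.54 CPM in fentanyl and 4.91, 4.72 and 5.32 CPM in saline females, so it was a low gene with no overlap. Its log2 fold change was -1.27 ± 0.42 (adjusted p = 0.0458 by edgeR). ENSRNOG00000005662 (chromosome 4, 142780987 to 143367578, plus strand) had 109, 79.3, 104 and 142 CPM in fentanyl and 151, 151 and 142 CPM in saline females, so the groups nearly touch. Its log2 fold change was -0.42 ± 0.13 (adjusted p = 0.0317 by edgeR). The chromosome 11 gene of 541 kb had 227, 159, 232 and 219 CPM in fentanyl and 280, 265 and 270 CPM in saline females (-0.35 ± 0.11, adjusted p = 0.0424 by edgeR). The calls ended in 8, 8 and 6 of 13 alternatives, among them the fits without each of the 3 saline replicates.

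**Figure D4:**
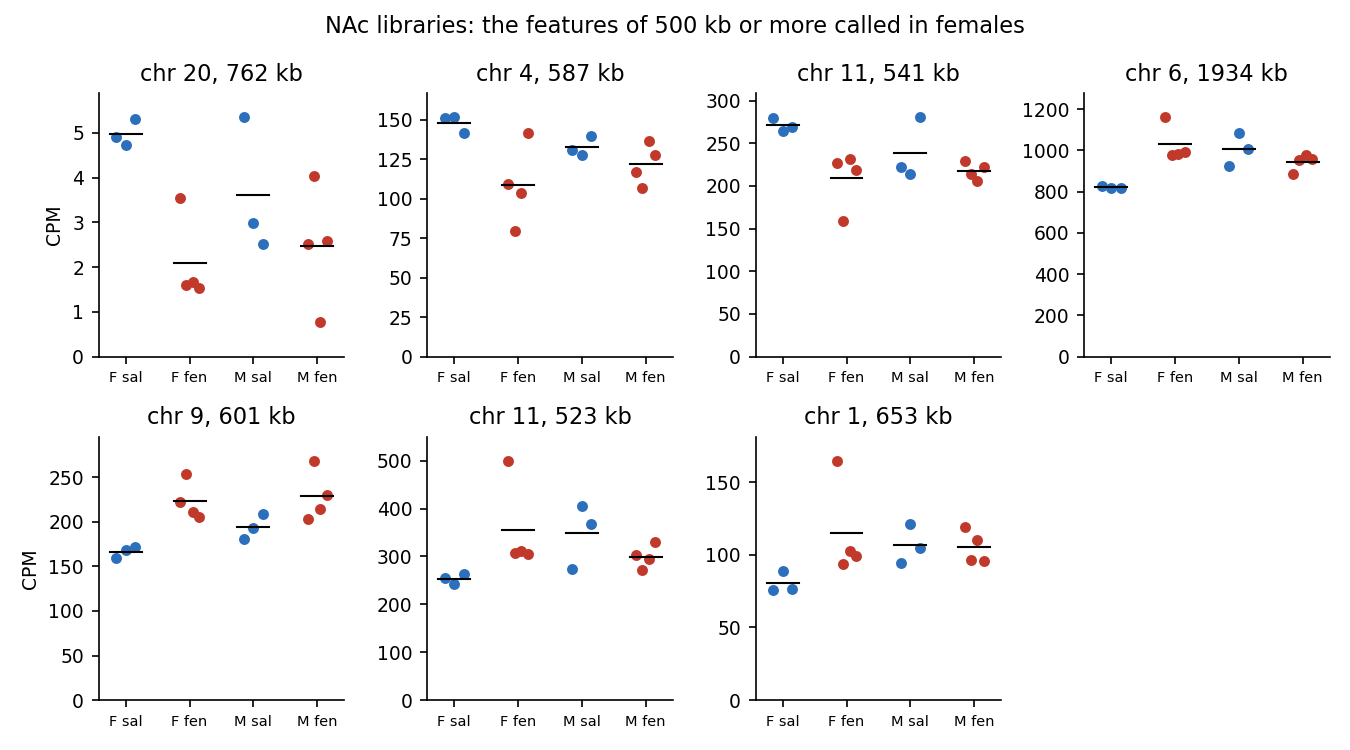
CPM per NAc library of the 7 long genes called in females, each panel titled by chromosome and span, for saline (blue) and fentanyl (red) females (F) and males (M); black lines are group means. The saline female points are close together in each panel, and in the chromosome 1 and chromosome 11 (523 kb) panels fentanyl female replicate 1 stands above the rest.

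A count without a test also found changes less often in long genes than over all features. Unlike among the calls, more lay below than above. In 9 long genes (8.65%) all fentanyl females lay above all saline females, and in 10 (9.62%) below, against 11.7% and 13.5% of all features.

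In the NAc of males no long gene passed the test, and none of the 13248 features did (0.0%). At an unadjusted p under 0.05 there were 8, 2 higher and 6 lower (edgeR), which is 7.69% against 6.42% of all features (3.48% higher, 2.94% lower); DESeq2 called 0, and 0.126% of all features with an adjusted p. The values of long genes leaned low all the same. The median log2 fold change was -0.07 against 0.00 in shorter features at like counts, and 32.7% of long genes had a positive value against 50.2%. In 12 long genes (11.5%) every fentanyl male lay below every saline male, where 3.77% of all features did, and in 2 (1.92%) above, where 4.48% did.

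The share of chromosome 1 to 20 counts in long genes was 1.98%, 1.93%, 2.04% and 1.98% in fentanyl males and 2.07%, 2.14% and 2.08% in saline males. These do not overlap; the means were 1.98% ± 0.0433 and 2.10% ± 0.0351 (SD). As a score over the members this has no test. Mitochondrial shares of these males overlapped, at 26.9% to 28.4% with fentanyl and 24.9% to 31.3% with saline. In NAc females the share in long genes was 1.96% ± 0.0672 with fentanyl (1.88% to 2.04%) and 2.01% ± 0.0063 with saline (2.00% to 2.01%), which overlap.

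The genes with the smallest p in males had the following values. A chromosome 2 gene of 519 kb had 33.4, 36.0, 28.5 and 31.8 CPM with fentanyl and 19.97, 22.0 and 23.1 CPM with saline, a log2 fold change of 0.58 ± 0.16 (adjusted p = 0.549 by edgeR). A chromosome 6 gene of 570 kb had 4.77, 9.56, 9.94 and 8.53 CPM with fentanyl and 15.8, 11.6 and 14.3 CPM with saline (-0.76 ± 0.23, adjusted p = 0.571 by edgeR). In both genes the male groups do not overlap.

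As a mean over the sexes, 2 long genes rose and 3 fell in the NAc, 4.81% of 104 against 7.51% of all features (4.52% up, 2.99% down) (edgeR, adjusted p under 0.05). Those that rose were ENSRNOG00000056894, the chromosome 2 gene just given (259379509 to 259898525, minus strand; log2 fold change 0.45 ± 0.11, adjusted p = 0.0181), and the chromosome 9 gene (0.34 ± 0.07, adjusted p = 0.0087). The first had 26.2, 41.2, 26.01 and 32.4 CPM in fentanyl females against 28.3, 24.04 and 25.4 in saline females, which overlap. The chromosome 9 gene had 203, 268, 214 and 230 CPM in fentanyl and 181, 193 and 208 CPM in saline males, with overlap at 1 value on each side, and its call held in all 19 alternatives.

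Those that fell were ENSRNOG00000004158, the chromosome 6 gene just given (53488883 to 54059119, minus strand; -0.59 ± 0.16, adjusted p = 0.0303 by edgeR), ENSRNOG00000028627 (chromosome 13, 67799791 to 68360664, minus strand; -0.55 ± 0.16, adjusted p = 0.0421 by edgeR) and a chromosome 18 gene of 701 kb (66523120 to 67224566, minus strand; -0.27 ± 0.08, adjusted p = 0.0322 by edgeR). The chromosome 13 gene had 13.8, 15.3, 12.2 and 9.25 CPM in fentanyl and 17.5, 28.8 and 15.8 CPM in saline females, and 15.05 ± 3.64 against 20.04 ± 4.19 CPM in males. The chromosome 18 gene had 94.6 to 102 CPM in fentanyl and 106 to 134 CPM in saline males, which do not overlap. Single rats moved these 5 calls: 1 was left without male saline rat 1, 2 without male fentanyl rat 1, without male saline rat 4 and without female saline rat 1 or rat 2, and 3 without male fentanyl rat 2. There were 9 without female fentanyl rat 1 and 8 without female fentanyl rat 2 or rat 8. With the replicate block 1 was called (0.962% against 2.57% of all features), and with no low-count filter 14 of 109 (12.8%) against 5.4%, a background not at like counts.

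No long gene of the NAc passed the test of a sex difference in the fentanyl effect. edgeR called 0 of 104 where 0.77% of all features were called; 10 had an unadjusted p under 0.05, 9 with the higher effect in females and 1 with the lower, against 14.1% of all features (8.08% and 6.04%). DESeq2 called 2 of the 84 long genes it gave an adjusted p (2.38%) and 3.42% of all such features. The chromosome 6 gene of 1934 kb had the smallest p, with an effect of 0.35 ± 0.09 in females and -0.09 ± 0.09 in males, a difference of 0.44 ± 0.13 (adjusted p = 0.11 by edgeR). ENSRNOG00000029598 had 0.52 ± 0.16 and -0.22 ± 0.16, a difference of 0.74 ± 0.22 (adjusted p = 0.133 by edgeR). Both were also lower in saline females than in saline males: the first had 924, 1083 and 1007 CPM in the males, above its 3 saline females, and the second had 274, 405 and 367 CPM. That baseline difference was called for none of the 104, where 0.377% of all features were called (edgeR); 9 had an unadjusted p under 0.05, 8 of them lower in females and 1 higher, against 11.5% of all features (6.65% and 4.83%), and DESeq2 called 1 of 97 (1.03%) and 1.01% of all features with an adjusted p. The log2 differences of the 2 genes were -0.31 ± 0.10 (adjusted p = 0.218) and -0.48 ± 0.17 (adjusted p = 0.273 by edgeR). The chromosome 9 gene (-0.24 ± 0.11) and ENSRNOG00000014862 (-0.43 ± 0.17, adjusted p = 0.35 by edgeR), which also rose in NAc females, went the same way. The 3 that fell there had values of 0.45 ± 0.42, 0.17 ± 0.12 and 0.14 ± 0.14, the other way. The comparisons share the saline libraries.

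In the VTA of females (3 fentanyl, 2 saline rats) no long gene passed the test, and 0.0% of 14400 features did, yet most long genes had negative values. Of 107 tested, 24.3% had a positive log2 fold change, against 50.2% of shorter features at like counts, and the medians were -0.18 and 0.00. edgeR gave an unadjusted p under 0.05 for 14 (13.1%), 12 lower and 2 higher, against 7.62% of all features (3.83% and 3.8%); DESeq2 called 1 (0.935%) and 0.257% of all features. With no low-count filter edgeR called 7 of 109 long genes (6.42%) and 1.65% of 25332 features, a background not at like counts. All fentanyl females lay below both saline females in 19 long genes (17.8%) and above them in 3 (2.80%), against 13.2% and 9.28% of all features. The median was negative in each of the 6 count bins that held long genes, from -0.06 to -0.42. By span it was 0.00 at 100 to 200 kb, -0.04 at 200 to 500 kb, -0.17 at 500 kb to 1 Mb and -0.20 in the 12 genes of 1 Mb or more. These span bins were not matched on counts.

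The difference in medians, -0.182, depended on single rats. It was -0.0798 without saline replicate 2 and -0.132 without fentanyl replicate 2, the library with low counts of the chromosome 7 gene. The share of counts in long genes was 1.55%, 1.24% and 1.49% with fentanyl and 1.59% and 1.62% with saline, which do not overlap. Mitochondrial features took 21.4% to 26.9% of counts in these fentanyl libraries and 19.4% to 21.04% with saline; their part in the shift was not tested. Within the fifth of features with the fewest neighbours the medians were -0.19 for 94 long genes and 0.02 for 2788 shorter features.

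The smallest p in VTA females belonged to a chromosome 1 gene of 510 kb, with 7.91, 10.5 and 11.9 CPM with fentanyl and 19.2 and 24.9 CPM with saline (log2 fold change -1.08 ± 0.23, adjusted p = 0.44 by edgeR). A chromosome 1 gene of 1678 kb had 62.4, 43.1 and 41.9 CPM with fentanyl and 88.6 and 74.0 CPM with saline (-0.70 ± 0.18, adjusted p = 0.507 by edgeR). The second lies across the chromosome 1 gene of 653 kb called in NAc females, on the opposite strand and with no exon overlap. A chromosome 1 gene of 518 kb went the other way, with 210, 271 and 211 CPM with fentanyl and 200 and 146 CPM with saline (0.45 ± 0.17, adjusted p = 0.634 by edgeR). In these 3 genes the groups do not overlap.

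In VTA males the medians lay close together. The median of long genes was 0.00 against 0.01 in shorter features at like counts, 50.5% of long genes had a positive value, and edgeR called 0 of 107, as of all features (0.0%); 4 had an unadjusted p under 0.05, 3.74% against 4.5% of all features, and DESeq2 called 0 (0.0527% of all features). With no low-count filter edgeR called 1 (0.917%) and 0.45% of all features. Fentanyl males lay above both saline males in 10 long genes (9.35%) and below in 14 (13.1%), near the 11.4% and 12.7% of all features. The share of counts in long genes was 1.72%, 1.49% and 1.49% with fentanyl and 1.80% and 1.63% with saline, which overlap. Mitochondrial features took 21.3% to 25.4% of counts with fentanyl and 17.6% to 18.4% with saline in these males, with no overlap. A higher mitochondrial share with fentanyl was thus seen in the VTA of both sexes, and its part was not tested.

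The VTA effects of the sexes were not shown to differ. As a difference of effects edgeR called 0 of 107 (0.0% of all features), with 2 at an unadjusted p under 0.05 (3.31% of all features) and 0 called by DESeq2, and the median difference was -0.10 in long genes against -0.01 in shorter features at like counts. As a mean over the sexes edgeR called 0 (0.0% of all features), with 13 at an unadjusted p under 0.05, 10 lower and 3 higher (8.83% of all features, 4.35% and 4.48%), 0 called by DESeq2 (0.271% of all features), and a median of -0.07 against 0.00. With no low-count filter edgeR called 6 over both sexes (5.5%) and 1.97% of all features, and 1 for the difference of effects (0.917%) and 0.43%. The chromosome 9 gene that rose in the NAc had 176, 197 and 203 CPM in fentanyl males, 152 and 157 in saline males, 193, 195 and 160 in fentanyl females and 156 and 155 in saline females. All fentanyl values lie above all saline values of the same sex, and the mean log2 fold change was 0.28 ± 0.09 (adjusted p = 0.454 by edgeR).

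**Figure D5:**
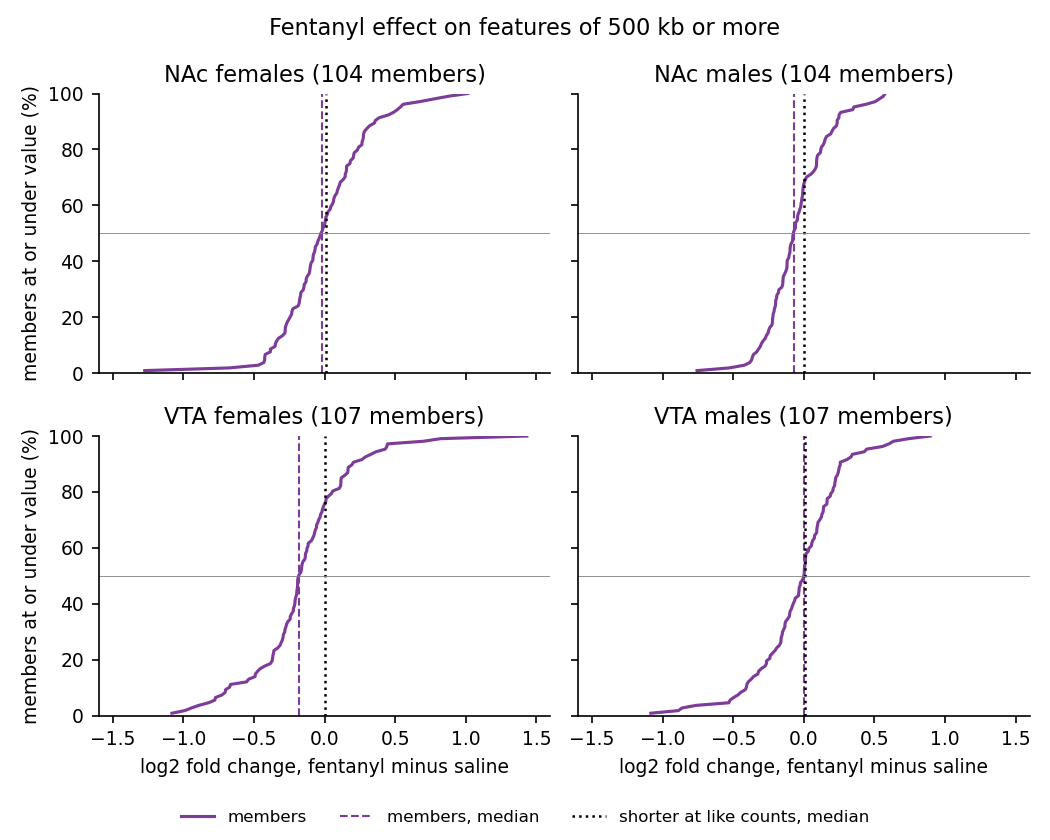
Cumulative percent of long genes by log2 fold change of fentanyl minus saline, for each region and sex; the dashed line is their median and the dotted line the median of shorter features at like counts. The dashed lines lie at -0.02 and -0.07 in NAc females and males and at -0.18 and 0.00 in VTA females and males, and the dotted lines at 0.00 or 0.01 in each panel.

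Whether fentanyl acted differently in the VTA than in the NAc of the same rats was tested in the 10 rats with both regions. edgeR called 0 of 106 long genes and 0.0% of all features; 9 had an unadjusted p under 0.05, 4 with the higher and 5 with the lower effect in the VTA (5.68% of all features, 3.01% and 2.66%), and DESeq2 called 0. With no low-count filter edgeR called 2 of 109 (1.83%) and 0.553% of all features. The medians were -0.01 in long genes and 0.00 in shorter features at like counts. A chromosome 12 gene of 886 kb had the smallest p, a difference of effects of 1.00 ± 0.27 (adjusted p = 0.781 by edgeR). It had 7.38, 10.8 and 16.2 CPM in the VTA of fentanyl males and 12.0, 15.3 and 9.98 in that of fentanyl females, against 6.79 and 8.67 in saline males and 6.66 and 7.68 in saline females. In the NAc it had 4.77 to 10.7 CPM with fentanyl and 7.03 to 12.6 CPM with saline.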

How the data were processed

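Per the file headers, each of the 24 deposited tables holds raw counts per Ensembl feature with its exon starts, ends, strand and exonic length. Per the submitters' processing notes the authors used STAR 2.5.2b, Subread 1.5.2 with featureCounts, Trimmomatic 0.36 and DESeq2, listed without role or order. Genome build, strand setting and the handling of multi-mapped reads: not given in the sources used here. Per the labels' protocols, ribosomal RNA was depleted. Totals were 3.46 M to 5.01 M counts in the NAc and 4.49 M to 6.30 M in the VTA, and no pair of libraries of a group was a copy (26 pairs, chi-square per degree of freedom 2.61 to 20.9). Groups came from the labels; the 24 libraries come from 14 rats, and within a region each is from a separate rat.

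Counts were tested in edgeR 4.0.16 (R 4.3.3): TMM scaling, filterByExpr, robust quasi-likelihood F test, two-sided, Benjamini-Hochberg over all features tested. The filter kept 104 of the 109 long genes in the NAc, 107 in the VTA and 106 over both. Each region was fitted with its 4 groups; regions were compared with rat as a block, the same rat in both regions by its code in the titles. CPM is TMM-scaled. Like counts: bins of summed counts with edges at 48 times powers of 4, shorter features weighted to the long genes' share of each bin. The script was tested on simulated data. DESeq2 1.42.0, no low-count filter, thinning, blocks, other thresholds and leaving out each rat were alternatives. The members and lists were chosen with earlier results of these data known. Genes named: called ones with a mean of 1 CPM or more by fold change (IDs for 2 each way), otherwise the smallest unadjusted p, the 10 most counted and the 5 longest. The tables pair no ID with a symbol and 0 features matched the reference, so the gene lists by role and by cell type were not analysed here and no sequence is given.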

Additional observations from a re-analysis of the deposited data

Results flagged for a closer look

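In groups of 4 libraries, 9 of 100 values examined had a library far from the other 3. The genes examined were picked in part by results of these same libraries, so no rate by chance is set beside the 9. In NAc female fentanyl replicate 1, 5 long genes were high: the chromosome 11 gene of 523 kb at 499 CPM (others 305 to 311), the chromosome 1 gene of 653 kb at 165 CPM (93.4 to 103), the chromosome 6 gene of 1934 kb at 1160 CPM (978 to 994), the chromosome 1 gene of 1678 kb at 43.2 CPM (36.5 to 36.8) and the chromosome 20 gene of 762 kb at 3.54 CPM (1.54 to 1.66). That library also had the highest mitochondrial share of the series, 36.7%. In replicate 2 of that group, the chromosome 4 gene of 534 kb stood at 20.1 CPM (others 6.37 to 7.71) and the chromosome 2 gene of 512 kb at 343 CPM (163 to 177), and both are among the genes higher in the VTA. In replicate 8 a chromosome 12 gene of 673 kb stood at 11.0 CPM (7.75 to 8.03). In NAc male fentanyl replicate 7 a chromosome 5 gene of 639 kb stood at 0.517 CPM (3.09 to 3.27).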

How the results depend on the processing

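Of 216 results of whole comparisons under alternatives, 190 stayed with their reported value; for named genes all 300 between regions kept their call, while of those for fentanyl 37 of 91 in NAc females and 29 of 95 over both sexes fell short of the threshold, and 0 changed sign. With no low-count filter, called long genes of 109 (and the share of all features) were 14 in NAc females (12.8% against 8.33%), 14 over both sexes (12.8%, 5.4%), 2 for the sex difference (1.83%, 1.56%), 1 for saline females against males (0.917%, 0.844%), 7 in VTA females (6.42%, 1.65%), 1 in VTA males (0.917%, 0.45%), 6 over both (5.5%, 1.97%), 1 for the VTA sex difference (0.917%, 0.43%) and 2 for region by fentanyl (1.83%, 0.553%). These features include the low ones that the filter removes; the cause was not tested. DESeq2 called 2 for the NAc sex difference (2.38% against 3.42%), 1 between saline sexes (1.03%, 1.01%) and 1 in VTA females (0.935%, 0.257%). Thinning to 1 depth gave 3 over both sexes in the NAc (2.91%, 6.6%). With the female groups alone 2 were called (1.94%, 8.5%).

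Leaving out 1 rat gave 1 to 10 calls in NAc females, 1 to 9 over both sexes and 81 to 84 between regions. The median difference from shorter features at like counts then ran from -0.198 to -0.0798 in VTA females, -0.137 to -0.0515 over both sexes of the VTA, -0.127 to -0.0684 for the VTA sex difference, -0.0407 to -0.00308 in VTA males, -0.0474 to -0.0223 in NAc females, -0.0944 to -0.061 in NAc males, -0.0569 to -0.0376 over both, 0.00469 to 0.0631 for the NAc sex difference, -0.0478 to 0.00169 between saline sexes, -0.286 to -0.201 between regions and -0.0428 to -0.0119 for region by fentanyl.

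With a threshold of 1 Mb (12 genes) it was 0.0312 in NAc females, -0.12 in NAc males, -0.0747 over both, -0.099 between saline sexes, -0.283 for the VTA sex difference and -0.693 between regions, and the share ratio of fentanyl to saline in NAc females was 1.05. At 250 kb it was -0.0866 in VTA females. With shorter features matched on neighbouring features in place of counts, chosen after seeing the data, it was -0.0824 in NAc females, -0.0184 for the NAc sex difference and 0.0297 between saline sexes.

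Replicate numbers recur across groups but do not show pairing: same-numbered libraries had a mean residual correlation of -0.00852 in the NAc (4 pairs) and 0.103 in the VTA (4 pairs, from -0.012). With the replicate block 6 long genes were called in NAc females, 1 over both sexes and 0 in the other comparisons within a region; without the rat block 82 were called between regions. Depth left 5 of the 109 long genes under the low-count filter in the NAc and 2 in the VTA, so these were not tested.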
